A study of Mus musculus with 73 samples.

Results

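DNA methylation was followed over 4 ages in mouse livers labelled control, with older livers of 4 months and 6 months set against younger livers of 20 days and 8 weeks. Reduced representation bisulfite sequencing (RRBS), which reads methylation at restriction fragments rich in CpG, gave a methylation level for tiles of 100 bp on chromosomes 1 to 19, named here by their mm9 position. The tiles described are those with a value in all 4 control libraries, 409137 of the 817277 tiles measured in the 27 RRBS libraries of the series. Each age was 1 library of hepatocyte DNA, so age, animal and library cannot be told apart, and p-values measure only the spread between these samples. The labels give these livers no genotype beyond control, and no sex, litter or library batch. Beside them stand 4 developmental double null livers of Foxa1 and Foxa2 at the same ages, 1 library each. The labels of the nulls in the whole-genome bisulfite sequencing (WGBS) name Alfp Cre, a Cre driven in the liver lineage, as the source of such developmental deletion, and their controls are Foxa1L/L;Foxa2L/L livers of 8 weeks. A further 7 control libraries came from other experiments of the series. They are 3 livers from 9-week-old Foxa1L/L;Foxa2L/L;Foxa3-/- mice taken 7 days after a GFP virus, 2 livers of that genotype from 12-week-old mice taken 13 days after it, and 2 livers from 12-week-old AAV GFP mice after partial hepatectomy. The other 12 RRBS libraries serve only for background levels and for a spread over all RRBS groups. They include 8-week-old Foxa1L/L Foxa2L/+ and Foxa1L/+ Foxa2L/+ livers depleted in development, and 12-week-old adult double nulls after partial hepatectomy. The rest are FoxA triple nulls 7 days (9 weeks old) and 13 days (12 weeks old) after Cre induction.

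DNA methylation at CpG sites is copied at each cell division by Dnmt1 and set by Dnmt3a and Dnmt3b, while Tet enzymes oxidise it as a step towards removal. Most of the mammalian genome is methylated, CpG islands at promoters are mostly not, and enhancers active in a cell type tend to have low or intermediate levels. FoxA proteins are pioneer transcription factors that open chromatin at liver enhancers, and HNF6 (Onecut1) is a liver transcription factor that binds many enhancers beside them. The mouse liver goes from suckling through weaning to adult metabolism after birth, and many hepatocyte enhancers lose methylation over that time.

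Tiles with a value numbered 500369 in the 20-day control, 471672 in the 8-week control, 615540 in the 4-month control and 507264 in the 6-month control, within the 445198 to 622668 tiles of all RRBS libraries. The read depth behind each value is unknown. Levels differed by at least 20 points between the 4-month and 6-month controls at 3.66% of tiles, close to the 3.00% to 3.74% between replicates in the 5 replicate pairs of the other controls, and at 6.46% of tiles between the 6-month and 20-day controls. Tiles far from any FoxA or HNF6 site that are unmethylated in the other controls (below 10%) averaged 3.74% to 4.32% across the 4 ages. They averaged 1.5% to 2.13% in the 12 RRBS libraries outside the age series that did not serve to choose these tiles, so the age series lay higher at such tiles. Defining marker genes of hepatocytes could not be checked, because the files hold methylation by position and no gene expression or gene names.

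Tiles were grouped by their place relative to 33302 FoxA binding sites of 400 bp that the authors deposited and to HNF6 peaks. The HNF6 peaks were pooled from the lists of 3 control livers, labelled Foxa1L/L;Foxa2L/L. They form 7248 separate regions, of which 1075 had a peak in all 3 lists. A tile that lies wholly inside a FoxA site belongs to it. A tile that overlaps an HNF6 peak by 1 bp or more and no FoxA site belongs to an HNF6 region. Tiles that overlap a FoxA site only in part count as nearby tiles. The deposited list of FoxA sites with more methylation in developmental nulls by WGBS holds 122 of the measured tiles, in 86 sites. The other FoxA sites hold 3921 tiles in 2352 sites, and HNF6 regions without a FoxA site hold 287 tiles. Another 37447 tiles lie within 2000 bp of a FoxA site or HNF6 region, and the remaining 367360 tiles are called distant.

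Methylation was lower in the older than in the younger control livers at each of the binding site groups and close to level at distant tiles. The 122 tiles of listed FoxA sites averaged 39.1% in the 20-day liver and 23.7% in the 8-week liver, then 20.3% and 18.3% in those of 4 and 6 months. Both older livers lay below both younger ones, and the 20-day liver stood apart from the other 3. The older livers averaged 19.3% ± 1.44 and the younger livers 31.4% ± 10.9 (SD over libraries, n = 2 each), a difference of -12.2 points (exact permutation test, two-sided p = 0.333, the smallest that 2 against 2 allows). Without the 20-day library the difference was -4.46 points, and without the 8-week library -19.8. The 7 other controls gave the same tiles 25.0% ± 0.336 at 9 weeks (SD, n = 3), 27.4% ± 1.20 at 12 weeks (n = 2) and 21.9% ± 0.550 after hepatectomy (n = 2), levels between those of the 20-day and the older livers.

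At the other FoxA sites the 20-day liver had a level of 11.2%, the 8-week liver 8.69%, the 4-month liver 7.63% and the 6-month liver 7.00%. The groups did not overlap, and each age lay below the age before it. The older livers averaged 7.32% ± 0.447 and the younger livers 9.97% ± 1.81, a difference of -2.65 points (exact permutation p = 0.333, n = 2 each), or -1.37 points without the 20-day library and -0.949 with the median over tiles in place of the mean. HNF6 regions without a FoxA site stood at 16.5%, 9.58%, 8.05% and 7.11% in the same order of ages. Here too the 20-day liver was the highest and the groups did not overlap. The older livers averaged 7.58% ± 0.664 and the younger livers 13.0% ± 4.88, a difference of -5.45 points (exact permutation p = 0.333, n = 2 each), or -2.00 points without the 20-day library and -8.90 without the 8-week library, and -1.29 with the median over tiles. The means at both kinds of site thus lay further from 0 than the medians. Distant tiles averaged 63.1%, 63.8%, 63.7% and 63.4% over the 4 ages. Their older and younger means were 63.6% ± 0.202 and 63.5% ± 0.496, which differ by 0.0847 points, less than the SD of either group (exact permutation p = 1). Leaving out the 20-day library turned that difference to -0.266 points, and leaving out the 4-month library to -0.0582, while with the median over tiles it was 1.00 (exact permutation p = 0.333).

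Counts of tiles show the same order of groups. Over all tiles, both older livers lay below both younger ones at 15.8% of tiles and above both at 16.5%. In the listed FoxA sites 52 of 122 tiles (42.6%) lay below and 6 above. In the other FoxA sites 922 of 3921 tiles (23.5%) lay below and 367 (9.36%) above, and in the HNF6 regions 81 of 287 (28.2%) lay below and 28 above. A mean at least 20 points lower in the older livers was found at 1.9% of all tiles and one at least 20 points higher at 0.757%. Such a lower mean was found at 38 of the 122 listed tiles (31.1%), 134 of the other FoxA tiles and 28 of the HNF6 tiles, against 1, 5 and 0 tiles that were as much higher. A level lower at every step from 20 days to 6 months was found at 3.91% of all tiles, at 23 of the 122 listed tiles (18.9%) and at 283 of the other FoxA tiles (7.22%). A level higher at every step was found at 3.91% of all tiles too, but at 2 listed tiles and 68 other FoxA tiles. The average at FoxA sites was lower in the older livers on 19 of 19 chromosomes, by -4.16 to -1.66 points. At distant tiles it ranged from -0.192 to 0.341 points, and was lower on 6 of 19 chromosomes.

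**Figure D1:**
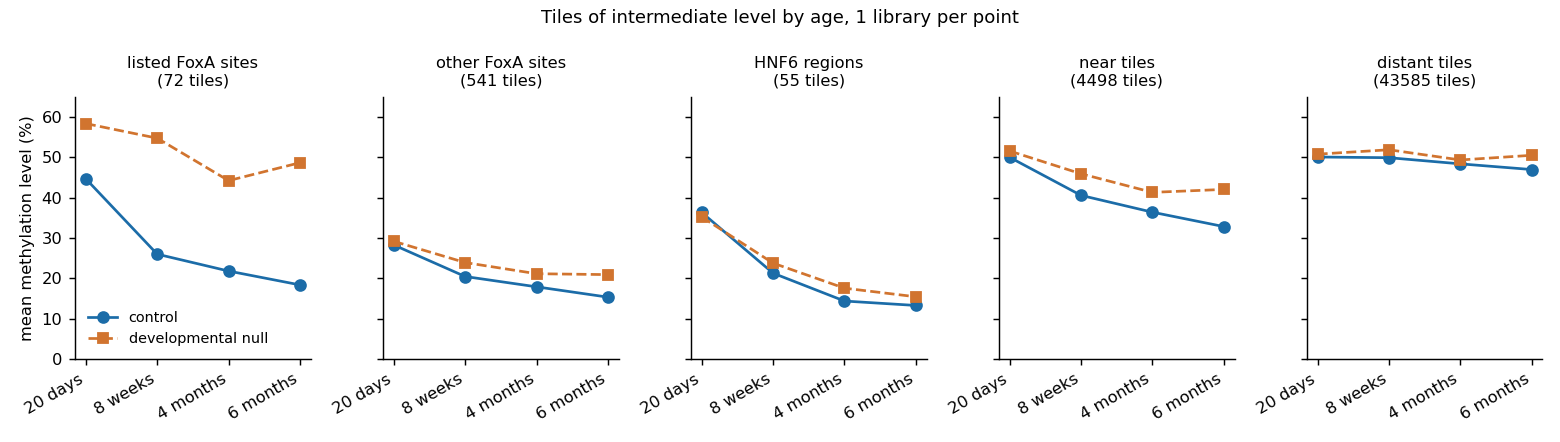
Mean methylation level (percent, y axis) against age (x axis, 20 days to 6 months) of tiles at 10 to 70% in the other controls, for each group of tiles, over tiles measured in all 8 age-series libraries; each point is 1 control (blue) or developmental null (orange) library. In listed FoxA sites the controls stand at 44.6%, 26.0%, 21.8% and 18.3% and the nulls at 58.3%, 54.7%, 44.2% and 48.6%, while distant tiles stay between 46.9% and 51.8% in both.

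Groups that start at unlike levels have unlike room to differ, so tiles were also compared within ranges of level. The ranges were set by the mean in the 7 other controls, which are not in the comparison. Levels within a range still differed, as 498 of the 613 tiles of other FoxA sites at 10 to 70% were at 10 to 30%. At tiles of 10 to 70%, the difference between older and younger livers was -8.05 points at 613 tiles of other FoxA sites, whose levels over the 4 ages were 28.5%, 20.8%, 17.8% and 15.4%. At 68 tiles of HNF6 regions it was -12.8 points, with levels of 33.1%, 18.1%, 13.9% and 11.6%. At 5027 tiles within 2000 bp of a site it was -10.7 points, with levels of 49.9%, 40.2%, 36.2% and 32.5%. At 83 tiles of listed sites it was -14.6 points, with levels of 43.9%, 25.5%, 21.4% and 18.8%. In this range the value of the nearby tiles lay between that of other FoxA sites and those of HNF6 regions and listed sites. The order changed in narrower ranges. At 10 to 30% the differences were -10.7 points at nearby tiles, -6.93 at other FoxA sites, -9.91 at HNF6 regions and -13.5 at listed sites. At 30 to 70% they were -10.7, -12.9, -24.1 (14 tiles) and -16.5 in the same order. Distant tiles of 10 to 70% stood at 50.3%, 50.0%, 48.5% and 47.1%, a difference of -2.34 points. The difference of each group minus that of distant tiles of this range was -12.3 points at listed sites, -5.71 at other FoxA sites, -10.5 at HNF6 regions and -8.35 at nearby tiles (each exact permutation p = 0.333, n = 2 each). Without the 20-day library the 10 to 70% differences were -4.19 points at other FoxA sites, -5.35 at HNF6 regions, -5.87 at nearby tiles and -2.20 at distant tiles, and -5.40 at listed sites. Without the 8-week library they were -23.8 at listed sites and -20.3 at HNF6 regions.

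The difference faded with distance from a FoxA site. Among tiles of 10 to 70%, it was -10.1 points at tiles that overlap a site, -11.7 at 1 to 500 bp, -11.0 at 501 to 1000 bp and -8.74 at 1001 to 2000 bp. It was -6.67 points at 2001 to 5000 bp, -5.36 at 5001 to 10000 bp, -2.81 at 10001 to 50000 bp and -0.909 beyond 50000 bp. The 1537 tiles at 1 to 500 bp stood at 48.5%, 37.2%, 33.2% and 29.0% over the 4 ages, and the 23374 tiles beyond 50000 bp at 51.0%, 52.0%, 51.1% and 50.0%. A mean at least 20 points lower in the older livers was found at 27.1% of the tiles at 1 to 500 bp and at 5.40% of those beyond 50000 bp. Without the 20-day library the 1 to 500 bp value was -6.11 points and the value beyond 50000 bp -1.42, which was -0.399 without the 8-week, -1.45 without the 4-month and -0.366 without the 6-month library. Tiles over 2000 bp from any FoxA site had a like profile around HNF6 regions, with -14.7 points at 47 overlapping tiles, -15.3 at 171 tiles 1 to 500 bp away, -7.46 at 1001 to 2000 bp and -1.79 beyond 50000 bp. The difference also faded with distance in the developmental nulls and was smaller there, with -7.63 points at 1 to 500 bp of a FoxA site and -0.30 beyond 50000 bp.

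**Figure D2:**
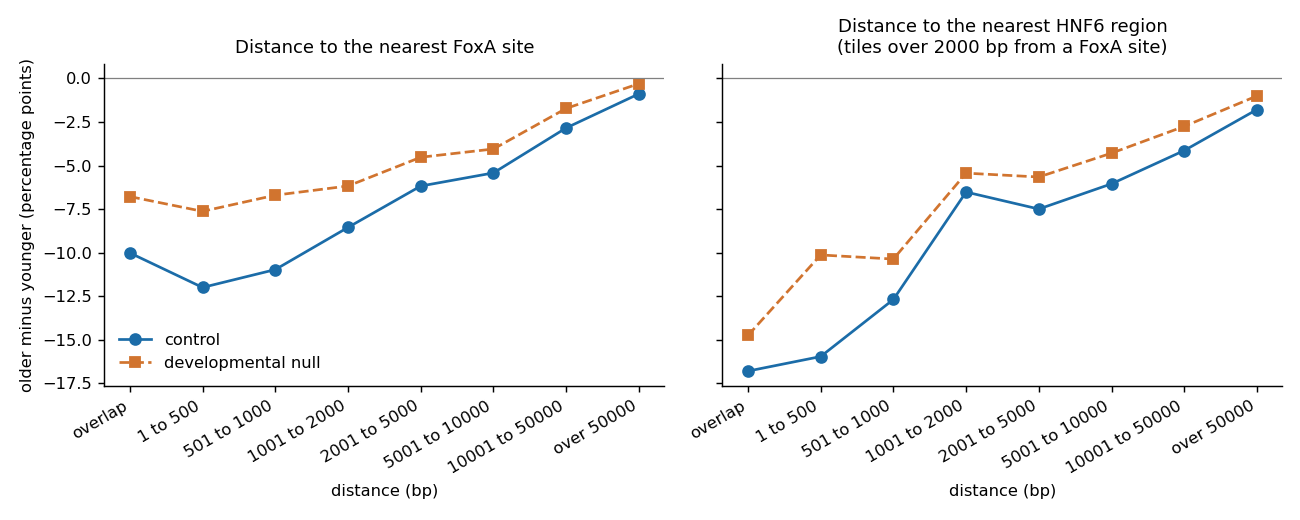
Older minus younger methylation level (percentage points, y axis) at tiles of 10 to 70%, by distance to the nearest FoxA site (left) or, for tiles over 2000 bp from a FoxA site, to the nearest HNF6 region (right; bp, x axis), in control (blue) and developmental null (orange) livers over tiles measured in all 8 libraries. Over these tiles the value at 1 to 500 bp of a FoxA site is -12.0 points in controls and -7.63 in nulls, and beyond 50000 bp it is -0.887 and -0.304.

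Tiles of 10 to 70% were also split by their distance to an unmethylated tile (below 10% in the other controls). Within 2000 bp of a FoxA site, they differed by -8.83 points where the next tile was unmethylated. The values there were -8.83 at 2 to 500 bp from an unmethylated tile, -9.94 at 501 to 2000 bp and -11.4 at over 2000 bp. Over 10000 bp from a FoxA site the values were -1.89, -1.71, -2.32 and -1.66 points in the same order. The part of unmethylated tiles in the distance profile was not tested.

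The size of the difference varied with the level of the tiles. Nearby tiles of 30 to 70% in the other controls stood at 62.9%, 55.7%, 50.8% and 46.4% over the 4 ages, and those of 10 to 30% at 33.0%, 20.3%, 17.3% and 14.6%. Both older livers also lay below both younger ones, by less, at nearby tiles of 70 to 90% (86.4%, 86.4%, 84.8% and 83.1%, a difference of -2.46 points) and below 10% (-1.02 points). Nearby tiles above 90% stood at 95.7%, 96.3%, 96.4% and 96.2%, and distant tiles above 90% were higher by 0.832 points, at 95.0%, 95.9%, 96.3% and 96.2% (exact permutation p = 0.333, n = 2 each). Among the listed tiles, the 31 tiles below 10% in the other controls stood at 16.8%, 6.29%, 4.49% and 4.72%, and the 53 tiles of 10 to 30% at 35.8%, 14.8%, 12.1% and 11.4%. Of their difference between 20 days and 6 months, 87.0% and 86.0% was present at 8 weeks. The 30 listed tiles of 30 to 70% stood at 58.2%, 44.4%, 37.7% and 31.9%, and the 8 tiles of 70 to 90% at 76.1%, 73.1%, 70.3% and 65.1%. In these 2 sets 52.4% and 27.9% of that difference was present at 8 weeks. The differences of the lowest and the highest of these sets were alike, at -6.97 points below 10% and -6.93 at 70 to 90%.

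Over the listed tiles together, 73.7% of the difference between 20 days and 6 months (-20.9 points) was present at 8 weeks. Over all tiles, 3.78% were at least 20 points lower at 6 months than at 20 days and 2.68% at least as much higher. In the listed sites 54 tiles were that much lower, and the first step, from 20 days to 8 weeks, was the largest in 38 of them (70.4%). It was the largest in 255 of 315 such tiles of other FoxA sites (81.0%), in 35 of 42 of HNF6 regions (83.3%), in 1800 of 2981 nearby tiles (60.4%) and in 5186 of 12092 distant tiles (42.9%). The 20-day and 6-month libraries chose these tiles, and each age is 1 library, so the shares describe these livers only.

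**Figure D3:**
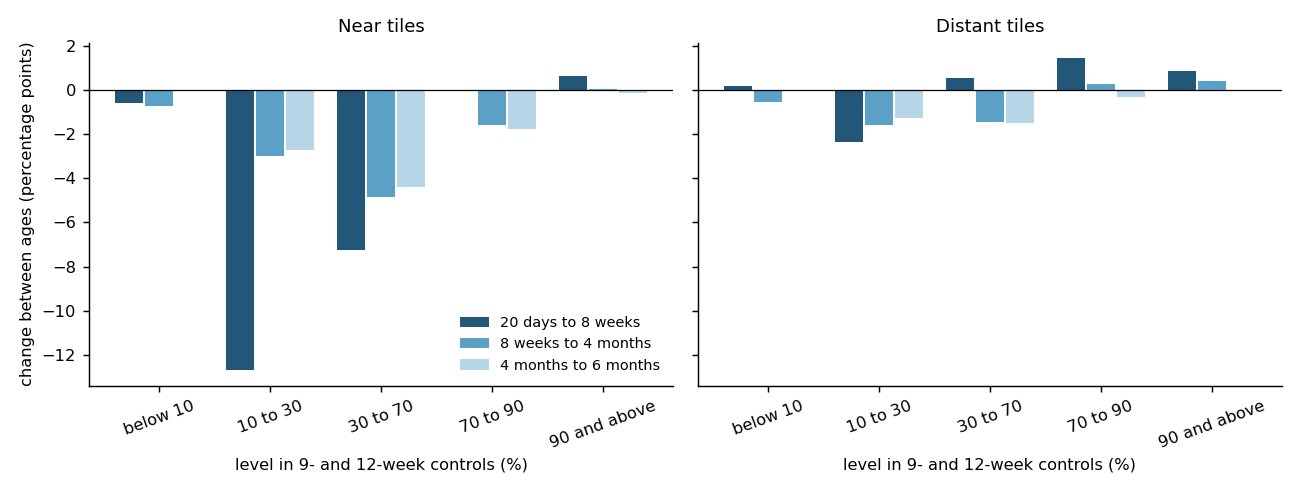
Difference in mean methylation level between successive ages (percentage points, y axis) in control livers, by the level of the tiles in the 7 other controls (percent, x axis), for nearby tiles (left) and distant tiles (right); each bar is 1 library minus the one before it in age. Nearby tiles of 10 to 30% have steps of -12.7, -3.00 and -2.71 points, and those of 30 to 70% have steps of -7.26, -4.84 and -4.40.

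The listed FoxA tiles did not all behave alike. Their difference between older and younger livers ran from -52.1 to 31.7 points with a median of -9.33 and quartiles of -21.5 and -1.90. It was negative at 97 of 122 tiles (79.5%), against 47.8% of all tiles. It was counted as positive at the other 25, against 49.7% of all tiles, though a tile among them had 91.7% in both groups. It lay within 10 points at 58 tiles, and 5 tiles were higher by at least 10 points. The tile at chr9:121862201-121862300 had control levels of 88.0%, 60.0%, 31.2% and 12.5% (limma adjusted p = 0.216). Its level in the developmental nulls was 92.6%, 100%, 100% and 96.6% at these ages, so the null liver of every age lay above the control. The tile at chr9:122540901-122541000 had 75.7%, 63.2%, 22.6% and 19.6% in controls (limma adjusted p = 0.101), and 76.7%, 77.3%, 62.6% and 71.3% in nulls. The tile at chr11:77644101-77644200 had 75.9%, 56.7%, 20.5% and 17.4% in controls (limma adjusted p = 0.129), and 86.1%, 57.1%, 62.9% and 74.3% in nulls. At each of the 3 tiles the older controls lay below both younger controls and below all 4 nulls. They are the 3 with the largest difference among the 10 listed tiles with the smallest p, and not all of those had nulls that stayed high. The tile with the smallest p, chr8:129330201-129330300, had 21.1%, 30.4%, 0% and 3.03% in controls (limma adjusted p = 0.0849), and 57.4%, 12.5%, 12.5% and 12.5% in nulls. No listed tile passed the test over all tiles, as the share of 0.0354% of all tiles called lower would also give for a list of this size. With the spread from all RRBS groups, 1692 of all 409137 tiles were called lower. In that setting 4 of the 10 passed, among them chr9:122540901-122541000 (limma adjusted p = 0.0416) and chr11:77644101-77644200 (limma adjusted p = 0.0280). The 10 were picked for the smallest p of the 122, so this count is not a share of the listed tiles.

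**Figure D4:**
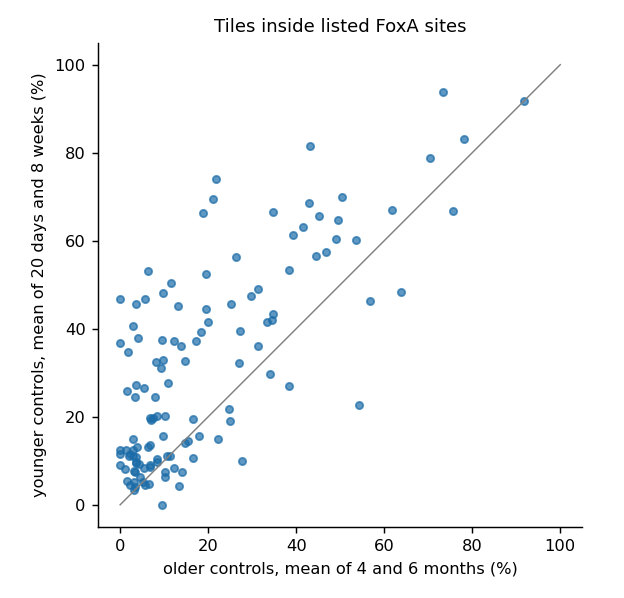
Mean level of the younger controls (20 days and 8 weeks, percent, y axis) against that of the older controls (4 and 6 months, percent, x axis) for each of the 122 tiles of listed FoxA sites; each point is 1 tile and the line marks equal levels. The 97 tiles with a lower level in the older controls lie above the line. The other 25 lie below it, except a tile at 91.7% in both groups, which lies on the line.

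FoxA sites outside the list had such differences as well. The list holds the sites with a WGBS level over 20 points higher in developmental nulls than in controls, from libraries that are not in this comparison. Among FoxA tiles measured in all 4 controls and all 4 nulls, the age difference in controls was -9.14 points at 34 tiles whose site was over 30 points higher in the WGBS nulls, and -14.2 at 71 tiles of 20 to 30 points. It was -8.18 at 135 tiles of 10 to 20 points, -2.49 at 1624 tiles of 0 to 10 points and -1.74 at 1777 tiles of 0 to 10 points lower. At 32 tiles whose site was over 10 points lower in the WGBS nulls it was -17.4 points, with control levels of 50.4%, 31.9%, 27.6% and 20.0%. At tiles of 10 to 70% the values were -13.1 points at 21 tiles over 30 points higher, -16.1 at 20 to 30, -10.5 at 10 to 20, -8.22 at 0 to 10, -5.35 at 0 to 10 points lower and -18.4 at 21 tiles over 10 points lower. The age difference was further from 0 in each successive group from 0 to 10 points lower up to 20 to 30 points higher, and the 2 small groups at the ends did not follow that order.

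Differences of at least 50 points between the 6-month and 20-day controls were found at 2490 tiles that were lower and 332 that were higher at 6 months. Replicate pairs of the other controls had 181 to 243 such tiles in both directions together. Of the lower tiles 32.4% lay within 2000 bp of a FoxA site, against 6.02% of the higher tiles and 9.44% of all tiles. The lower tiles had median levels of 82.9%, 40.0%, 27.5% and 14.9% over the 4 ages, where the first and last values chose them and the middle ages did not. The other controls gave them medians of 36.0% at 9 weeks, 36.6% at 12 weeks and 28.6% after hepatectomy, between the 20-day and 6-month values. In the nulls, 2099 of them had medians of 81.6%, 51.4%, 37.5% and 36.7%. Of these, 1929 (91.9%) were lower at 6 months than at 20 days, against 40.4% of all tiles and 48.2% of tiles at 10 to 70% in the other controls. The neighbours of the lower tiles, which the choice did not use, had a median difference of -39.2 points. Of these 1977 neighbours 90.5% were lower at 6 months and 69.9% were lower by at least 20 points. Among the neighbours of all tiles 3.34% were that much lower. Among the neighbours of tiles at 10 to 70% in the other controls, 51.1% were lower and 11.4% were lower by at least 20 points.

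Neighbouring tiles also differed together between the older and younger livers. Runs of at least 4 tiles whose older libraries both lay beyond both younger ones, with a mean difference of at least 20 points and gaps of at most 500 bp, formed 26 clusters lower and 9 clusters higher in the older livers. This definition was chosen after values were seen, so the control values describe the clusters and the nulls were not used to choose them. Of the 26 lower clusters 10 lay within 2000 bp of a FoxA site, where 9.44% of all tiles lie, and 9 beyond 10000 bp. None held a listed tile, and only 122 of all 409137 tiles are listed. Of the 9 higher clusters 0 lay within 2000 bp of a FoxA site, which so few clusters cannot tell apart from the share of all tiles. By sign alone, the nulls differed in the same direction in 25 of 26 lower clusters and 9 of 9 higher ones. The null difference of the lower clusters had a median of -19.2 points, but the count takes in values near 0, such as -0.1 at chr10:120935001-120935600. Of all single tiles measured in the 8 libraries, 48.6% were lower and 49.4% higher in the older nulls, which are not shares of clusters. The choice favours large differences in these controls, so the sizes in controls and nulls are not compared.

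The lower cluster at chr2:165721701-165722400 had 88.9%, 58.1%, 34.1% and 20.7% in controls over the 4 ages, and 79.0%, 68.4%, 34.4% and 36.7% in nulls, and lay 16 bp from an HNF6 region. The cluster at chr9:22031201-22031700 lay 324 bp from a FoxA site, with 87.9%, 21.8%, 10.3% and 6.5% in controls and 85.8%, 45.0%, 12.8% and 16.2% in nulls at its 4 tiles measured in every library. In both clusters controls and nulls alike were lower at 6 months than at 20 days. The cluster at chr10:120935001-120935600, 11103 bp from a FoxA site, had 82.5%, 70.5%, 47.4% and 34.9% in controls, and 84.2%, 67.8%, 72.1% and 79.7% in nulls. It was the 1 lower cluster of these 3 whose nulls were near their 20-day level at 6 months. The highest number of tiles was in the cluster at chr15:75828101-75829600, where 11 of 12 tiles were higher in the older livers. Its levels were 12.9%, 33.4%, 48.8% and 60.0% in controls, each age above the one before, and 20.9%, 55.1%, 48.2% and 47.5% in nulls. The cluster at chr4:61869201-61869900 had 2.56%, 2.57%, 32.1% and 58.9% in controls and 18.1%, 2.8%, 22.8% and 47.9% in nulls, and lay 118364 bp from the nearest FoxA site.

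**Figure D5:**
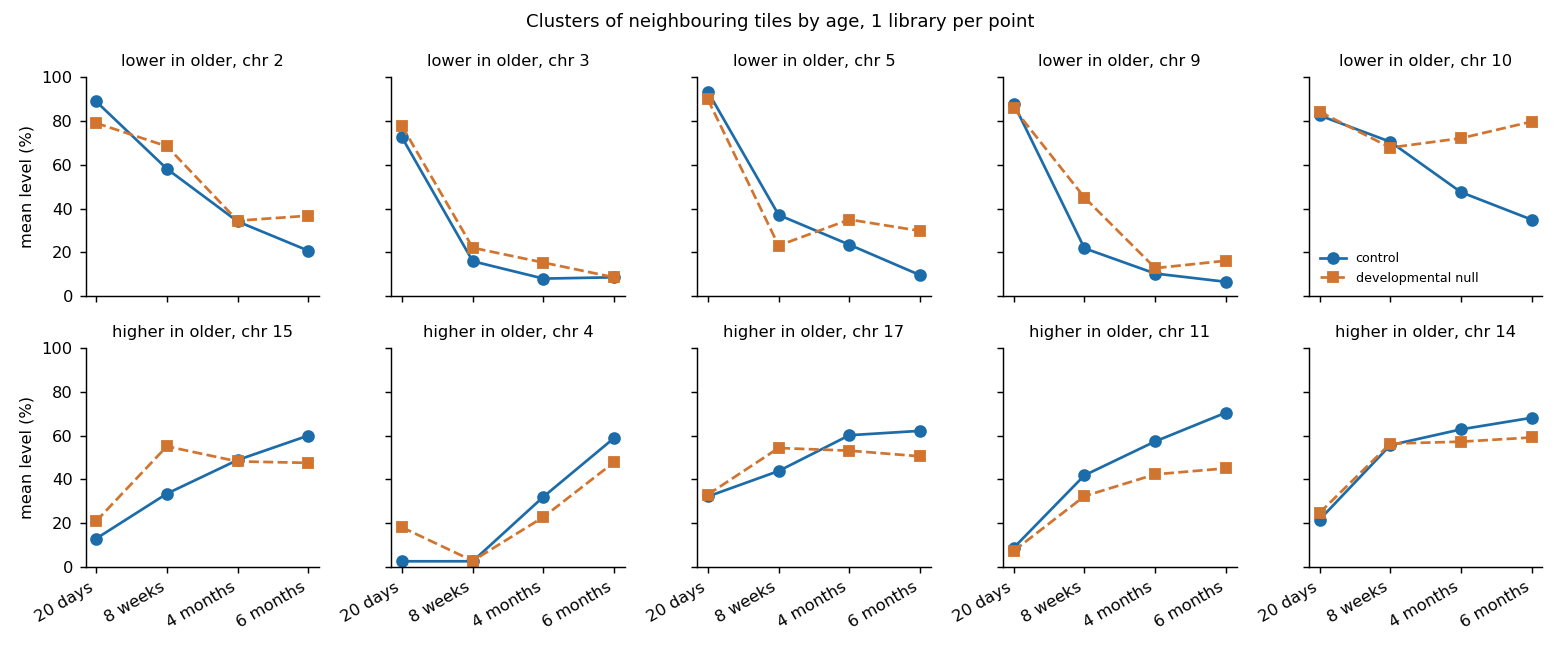
Mean methylation level (percent, y axis) against age (x axis, 20 days to 6 months) in control and developmental null livers for the clusters with the most tiles that were lower or higher in the older controls, over the tiles measured in all 8 libraries; each point is 1 library. On chromosome 10 the 6-month control lies at 34.9% and the null at 79.7%, and on chromosome 15 the control reaches 60.0% and the null 47.5%.

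Tile by tile, limma with a spread estimated over all RRBS control groups called 145 tiles lower in the older livers (0.0354% of tiles) and 77 higher (0.0188%) at an adjusted p below 0.05, of 409137 tested. At an unadjusted p below 0.05 the share was 9.77%. Most of the called tiles were low in level, with 108 of the lower and 70 of the higher tiles below a mean of 10%, and their median differences were -8.57 and 7.67 points. Calls with a difference of at least 20 points numbered 28 lower and 5 higher. The counts were 0 and 0 when the spread came from the 4 age-series controls alone. In that fit 28312 of the 409137 tiles had an unadjusted p below 0.05. The counts were 1692 lower and 666 higher when the spread came from all RRBS groups. They were 4118 and 818 without the 20-day library, 6287 and 2207 without the 8-week library, 517 and 1264 without the 4-month library and 300 and 784 without the 6-month library. The called tiles are therefore given as single tiles with their values, and the number of them is not a measure of how much methylation differed. By place, 9 of the 145 lower tiles lay in other FoxA sites, 1 in an HNF6 region, 37 near a site and 98 were distant. Of the 77 higher tiles, 2 lay in other FoxA sites, 0 in an HNF6 region, 16 near a site and 59 were distant. Distant tiles were 67.6% of the lower and 76.6% of the higher calls, against 89.8% of all tiles. Tiles within 2000 bp of a FoxA site were 28.3% and 23.4%, against 9.44% of all tiles. These shares are not at a like level, because most called tiles were low and low tiles are less often distant. Of the 120047 tiles below 10% in the other controls, 94002 were distant. Of the called tiles with null values, 76 of 119 lower tiles were lower in older nulls too (63.9%, against 48.6% of all tiles). Of the higher tiles 20 of 58 were higher in older nulls (34.5%, against 49.4%). These shares are not at a like level either, and the tiles below 10% in the other controls had a mean null difference of -0.443 points. No run of 3 or more called tiles was found.

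Of the called tiles whose older and younger libraries did not overlap, the one with the largest difference in the lower direction was chr13:9222701-9222800, 18 bp from a FoxA site. Its levels were 100%, 86.7%, 4.00% and 13.6% over the 4 ages, a difference of -84.5 points (SE 9.76, limma adjusted p = 0.0392). Both older livers were low, and the nulls had 67.7%, 48.6%, 22.2% and 59.3%. The other controls averaged 0.980% at 9 weeks, 28.9% at 12 weeks and 22.0% after hepatectomy, far below the 8-week control. The tile at chr14:63733501-63733600, 2658 bp from a FoxA site, had 64.7%, 100%, 0% and 0%, a difference of -82.4 points (limma adjusted p = 0.0278). The nulls had 23.1% at 20 days and 0% at the later ages, below the younger controls from the start. The other controls averaged 0% at 9 weeks and at 12 weeks and 2.17% after hepatectomy, so the younger controls stood alone. The tile at chr4:16519401-16519500, 53 bp from a FoxA site, had 86.7%, 72.7%, 10.5% and 0%, a difference of -74.4 points (limma adjusted p = 0.0092). The nulls were at 92.3%, 33.3%, 10.0% and 0%, and the other controls averaged 14.0% at 9 weeks, 18.5% at 12 weeks and 2.78% after hepatectomy. Levels near those of the older controls were thus found at 9 weeks in other mice at all 3 tiles. The tile at chr14:100728201-100728300 lay in an unlisted FoxA site and had 82.4%, 70%, 10.0% and 0%, a difference of -71.2 points (limma adjusted p = 0.0450), with 86.3%, 16.0%, 21.4% and 13.3% in nulls, and 18.5% at 9 weeks, 31.1% at 12 weeks and 11.3% after hepatectomy in the other controls.

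Tiles away from FoxA sites were also among the called ones. The tile at chr10:17859301-17859400, 66306 bp from a FoxA site, had 91.3%, 95.7%, 18.2% and 5.13% in controls and 91.7%, 95.8%, 4.76% and 17.9% in nulls, with a control difference of -81.8 points (limma adjusted p = 0.0392). Controls and nulls had the same 2-level pattern at this tile, high to 8 weeks and low from 4 months, and the other controls averaged 71.4% at 9 weeks, 57.6% at 12 weeks and 16.4% after hepatectomy. Of the 10 tiles named for the largest higher values, 9 were distant, close to the 89.8% of all tiles. The tile at chr12:105236601-105236700 had 2.78%, 7.27%, 95.2% and 97.1% in controls, a difference of 91.2 points (SE 11.1, limma adjusted p = 0.0464), and 1.43%, 1.96%, 85.0% and 97.1% in nulls. In the other controls it averaged 1.20% ± 1.18 at 9 weeks (SD, n = 3), 0% ± 0 at 12 weeks (n = 2) and 70.4% ± 29.6 in the hepatectomy controls of the same age (n = 2). The tile at chr4:61869201-61869300, inside the higher cluster on that chromosome, had 0%, 0%, 57.9% and 50.0% (difference of 53.9 points, limma adjusted p = 0.0162), and the other controls 29.4% at 9 weeks, 33.3% at 12 weeks and 9.14% after hepatectomy. The tile at chr19:57056501-57056600 had 60.0%, 60.0%, 100% and 97.1% in controls (difference of 38.6 points, limma adjusted p = 0.0314) and 100%, 92.0%, 100% and 80.0% in nulls, and the other controls averaged 90.5% at 9 weeks, 100% in 1 library at 12 weeks and 83.7% after hepatectomy. The tile at chr3:67267401-67267500 had 3.33%, 6.52%, 26.9% and 35.0% in controls (difference of 26.0 points, limma adjusted p = 0.0162), at most 10.3% in the nulls and at most 3.34% on average in each group of other controls.

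The age difference of the controls was then set against that of the developmental nulls at the 369462 tiles measured in all 8 libraries. At 105 listed tiles the controls stood at 39.6%, 24.1%, 20.5% and 18.1% and the nulls at 52.2%, 49.0%, 40.5% and 44.6%. The older livers differed from the younger by -12.6 points in controls and -8.01 in nulls, and the control difference minus the null difference was -4.54 points (exact permutation of the 4 same-age control minus null values, p = 0.667). Taken as a median over tiles it was 0.512 points, and without the 20-day control 3.18, so its direction is not settled by these libraries. At 2558 nearby tiles of 30 to 70%, control minus null was -1.84, -6.20, -6.21 and -11.9 points at the 4 ages, with levels of 63.0%, 55.8%, 50.8% and 46.6% in controls and 64.8%, 62.0%, 57.0% and 58.4% in nulls. The difference of the 2 age differences was -5.01 points (exact permutation p = 0.333). At tiles of 10 to 70%, the age differences in controls and in nulls were -7.74 and -5.51 points at other FoxA sites, -15.0 and -13.0 at 55 HNF6 tiles, and -2.32 and -1.41 at distant tiles. Both genotypes had lower levels in older livers in each of these groups. By tile, limma called the control difference below the null difference at 493 tiles (0.133%) and above it at 467 (0.126%), of which 433 and 442 had a mean level below 10%. FoxA sites held 6 (1.22%) and 17 (3.64%) of these tiles, against 0.994% of all tiles tested. That share is not at a like level, because FoxA sites are commoner among low tiles. Of the 114081 tested tiles below 10% in the other controls, 2948 lay in other FoxA sites. None was in a listed site, which hold 0.0284% of all tiles tested.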

How the data were processed

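Per the labels, hepatocyte DNA of control and developmental null mouse livers was sequenced by RRBS. The submitters' processing notes name Trim Galore 0.3.3, BSMAP 2.74 and the mm9 build. The authors deposited 1 methylation fraction per 100-bp tile and library with no read counts, and another fraction per FoxA site and WGBS library. Fractions were multiplied by 100. HNF6 peaks were called by the authors against input in each library, per the file headers, with a fold enrichment per peak, which was used as an alternative filter. The 8 RRBS columns that hold the authors' group averages were not used.

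Older minus younger controls were fitted with limma 3.58.1 (R 4.3.3) on percent, with a variance trend and a spread shared with the other RRBS control groups, and p-values were adjusted over all tiles by Benjamini-Hochberg. The age difference of controls against nulls was fitted likewise, with the nulls added. The spread in that fit was shared with all RRBS groups of the series, the other FoxA mutants included, and not with the control groups alone. Class levels are means over tiles per library, compared by exact two-sided permutation of libraries (scipy 1.17.1). Classes were set in the order list, other FoxA site, HNF6 region, within 2000 bp, distant. FoxA classes took tiles wholly inside a site, and HNF6 regions took tiles with an overlap of 1 bp and no FoxA site. The scripts were tested on simulated data.

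Tiles named are the 10 called tiles with the largest difference in each direction (1 per 1000 bp) and the 10 listed tiles with the smallest p, of which the largest differences are printed. The members, lists and tests were chosen with earlier results of these data known. Alternatives left out each library, and changed the scale, spread, filters, normalization, class definitions and age term. Classes by an overlap of 1 bp, and leaving out libraries in the values by level and distance, were chosen after seeing the data. No gene was named and no gene list was tested, because the files' build is mm9 and the gene tables used here are GRCm38.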

Additional observations from a re-analysis of the deposited data

Results flagged for a closer look

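The tiles at which the age difference of control livers departed from that of developmental null livers numbered 493 below and 467 above by a limma test of the difference itself. In the first set the median levels over the 4 ages were 5.80%, 5.62%, 1.45% and 1.49% in controls and 1.54%, 1.46%, 4.72% and 5.26% in nulls. In the second set they were 1.06%, 0.971%, 4.35% and 4.28% in controls and 5.74%, 5.75%, 0.980% and 0.806% in nulls. Differences of at least 20 points were found at 54 and 40 of these tiles. Both counts were 0 when the spread came from the 8 age-series libraries alone. In that fit 17979 of the 369462 tiles tested had an unadjusted p below 0.05, close to what this cut gives where nothing differs. In the fit with all groups 31400 of them did. The background of unmethylated distant tiles was 3.65% to 4.32% in the age-series libraries, against 1.5% to 2.13% in the 12 RRBS libraries outside it that did not serve to choose these tiles, and its part in these calls was not tested.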

How the results depend on the processing

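The counts of called tiles moved with nearly every choice. Lower and higher calls numbered 28 and 5 at 20 points or more, 3 and 1 at mean levels of 5 to 95%, 0 and 0 with the 4 controls alone, 1692 and 666 with all RRBS groups, 921 and 616 on the logit scale, 13 and 7 after quantile normalization, 0 and 1 without a variance trend, and 7 and 8 with age order as a linear term. Leaving out 1 control library gave 300 to 6287 lower and 784 to 2207 higher. Calls against the nulls numbered 54 below and 40 above at 20 points or more, 0 and 0 with the 8 libraries alone, and 1797 and 1483 with age as a replicate block. Leaving out 1 library gave 640 to 2832 below and 744 to 2350 above. Deviations of same-age controls and nulls correlated by 0.218 in the younger and 0.0148 in the older groups, and no label pairs them. The levels at binding sites kept their direction in every alternative run, but as medians over tiles other FoxA sites differed by -0.949 points and HNF6 regions by -1.29, against means of -2.65 and -5.45. Leaving out 1 library gave -19.8 to -4.46 points at listed sites, -3.93 to -1.37 at other FoxA sites and -8.90 to -2.00 at HNF6 regions, the smallest without the 20-day liver. Distant tiles then ranged from -0.266 to 0.436 points, and were at 1.00 as a median. The difference between control and null at listed tiles ranged from -12.3 to 3.18 points, and was 0.512 as a median. The cause was not tested. Depth is unknown, so no coverage minimum was run, and the table holds autosomes alone.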
